A study of Mus musculus with 14 samples.

Results

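Satellite cells sorted by a fluorescent reporter of the transcription factor gene Fos were compared across all genes: 4 libraries labelled FosGFP+ against 4 labelled FosGFP-, 8 of the 14 libraries of the series. They were chosen by label, and no measured value entered the choice. The count table held 49671 genes, of which 20698 had enough reads to be tested. All 8 libraries came from 4-month-old C57BL/6J mice that carry the FosGFP reporter, positive and negative cells alike, and each was made from RNA of 1000 cells sorted straight from resting muscle (hind-limb, pectoral and triceps). No treatment was given. The gate kept cells with integrin B1 and CXCR4 on their surface. It left out cells bearing CD45, CD31, CD11b, Ter119 or Sca1, so the groups share every sort marker except GFP. The series text gives 4 mice without saying which gave which library, so the p-values measure the spread between these libraries. The labels do not describe how the reporter was built.

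Fos encodes a subunit of AP-1, a dimeric transcription factor whose mRNA is made within minutes of a stimulus and is then quickly destroyed. Satellite cells are the stem cells of skeletal muscle. They rest under the basal lamina of the fibre, and freeing them by enzymatic digestion is itself a stimulus known to switch on Fos. A cell that leaves rest enlarges, and to do so it needs amino acids, tRNA synthetases, initiation factors, chaperones and protection from oxidants.

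Fos mRNA ran against the label. It stood at 5243, 5398, 3098 and 4606 CPM in FosGFP+ and at 12880, 11590, 7908 and 11300 CPM in FosGFP-. Every library labelled FosGFP+ lay below every library labelled FosGFP-, with a log2 fold change of -1.25 ± 0.21 (SE; edgeR adjusted p = 9.33e-04). Directions below are therefore between libraries by label, always FosGFP+ minus FosGFP-, and the mRNA of the reporter was not analysed here. Whether the 2 labels are exchanged was not tested, and an exchange would turn every direction given. Levels are in CPM, for which each library's counts were divided by its TMM-scaled size. Errors are SDs over 4 libraries, and levels are compared between libraries and not between genes. Log2 fold changes carry their SE.

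Counts in genes ran from 3806776 to 5983711 in FosGFP+ and from 2652230 to 4067543 in FosGFP-. Between 17% and 23.2% of the reads of a FosGFP+ library fell in genes, against 10.3% to 14.1% in FosGFP-, a difference of 6.85 percentage points (exact permutation test, two-sided p = 0.0286, the smallest that 4 against 4 allows). Reads spread evenly over the genome were estimated from 1958 receptor genes of smell, taste and pheromones. They made up 6.48% to 10.8% of gene counts in FosGFP+ and 13.1% to 19.6% in FosGFP- (exact permutation p = 0.0286). FosGFP- replicate 4 was the shallowest library and had the most background. A principal component analysis put 34.2% of the variance on a first component that separated the groups.

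**Figure D1:**
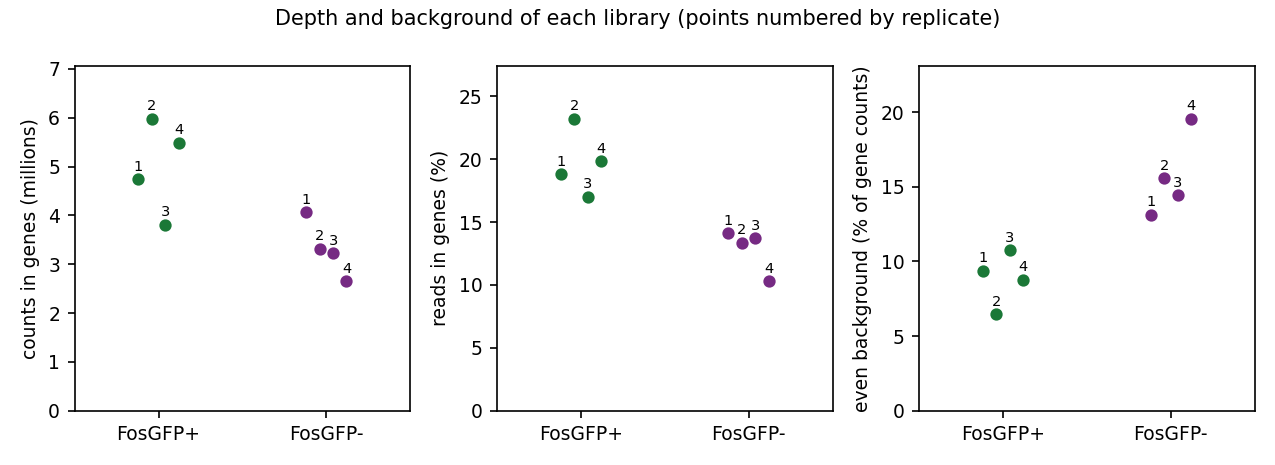
Counts in genes (left), the percent of reads that fell in genes (middle) and the estimated even background as a percent of gene counts (right) for each library, numbered by replicate. The groups overlap in counts and do not overlap in the other 2 measures, with FosGFP- replicate 4 lowest in reads in genes at 10.3% and highest in background at 19.6%.

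Of the 20698 genes tested, 2125 (10.3%) passed the test as higher and 383 (1.85%) as lower in FosGFP+ (edgeR, Benjamini-Hochberg adjusted p under 0.05). The 4 libraries of 1 group lay wholly above those of the other for 2661 genes (12.9%) with FosGFP+ higher and for 1335 (6.45%) with it lower, and among the 4002 genes of at least 50 CPM for 48.2% and 1.6%. The number of higher calls rested on the scaling, since scaling by total counts moved the median gene by -0.40 on the log2 scale, TMM computed from genes of at least 50 CPM by -0.58, and taking off the even background by -0.19. The genes that lead the text are those called in the same direction under TMM, total counts and TMM of well-expressed genes, 722 (3.49%) higher and 383 (1.85%) lower. Both alternatives move all genes downward, so the 722 are the higher calls under TMM of well-expressed genes, no lower call could be lost, and the 3 scalings are no check of the 383. Without FosGFP+ replicate 4 these became 479 and 218. Lower calls also fell to 184 without FosGFP- replicate 1, 227 without FosGFP- replicate 4, 237 without FosGFP- replicate 3 and 245 without FosGFP+ replicate 2.

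The higher and lower genes differed in kind. Of the 722 higher genes, 715 were protein-coding, 650 had a mean of at least 50 CPM and 708 were still called after the even background was subtracted. Of the 383 lower genes, 41 had a mean of at least 50 CPM, 15 were receptor genes of the class used to estimate the background, and 173 of the 295 that could be tested after subtraction were still called. Among the 41 well-expressed lower genes 40 were still called after it. In the authors' deposited table, 721 of the 722 and 340 of the 383 were listed with the same direction. That table is the authors' comparison of the same groups, so it is no independent check. At 50 CPM or more the median log2 fold change was 0.57, with 41.9% called higher and 16.2% called higher under the 3 scalings, against a median of -0.18 over all genes tested. Lists of well-expressed genes are read against the former. Of the 46 gene lists counted, 3 had more lower than higher calls under TMM and 12 a median below 0, against 24 and 32 with TMM of well-expressed genes.

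**Figure D2:**
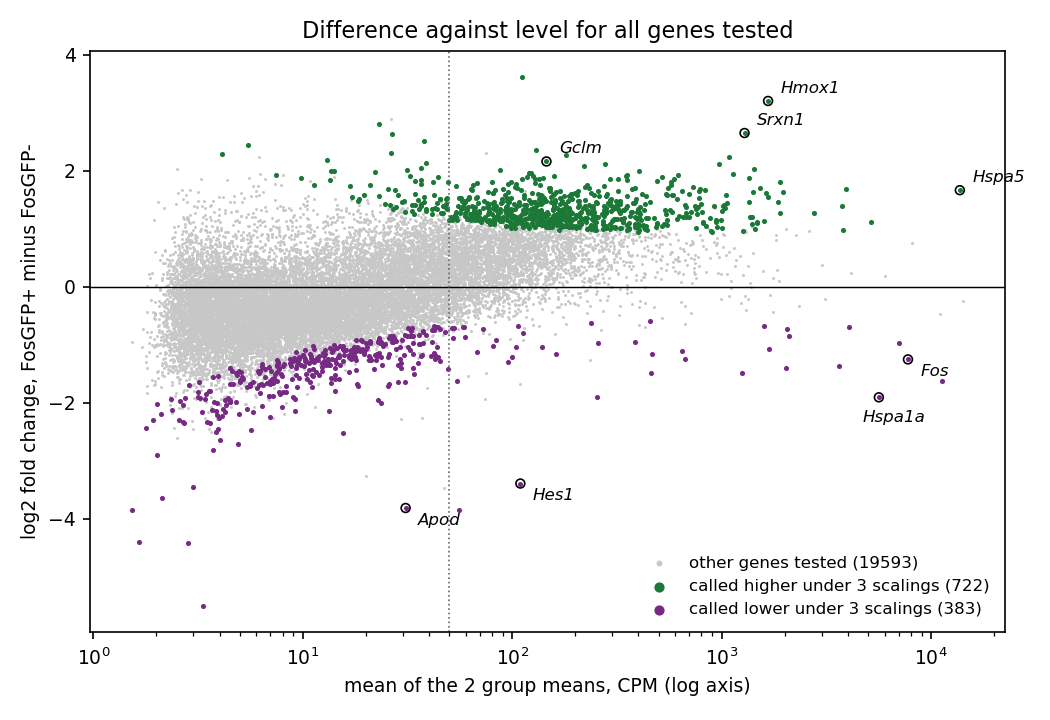
Log2 fold change (FosGFP+ minus FosGFP-) against the mean level in CPM on a log axis for the 20698 genes tested. Genes called in 1 direction under 3 scalings are green (722 higher) or purple (383 lower), the dotted line marks 50 CPM, and circled genes are named in the text. Most green points lie to the right of the dotted line and most purple points to the left, with 41 purple points at 50 CPM or more.

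The endoplasmic reticulum (ER) folds secreted and membrane proteins. When folding falls behind, the sensors Ire1, Perk and Atf6 switch on chaperone genes, with Xbp1 as the factor that Ire1 activates. Of 25 tested genes of ER chaperones and this unfolded protein response, 21 were called higher in the libraries labelled FosGFP+, and 17 under the 3 scalings. The members' median log2 fold change was 1.31, and 1.15 after the even background was subtracted. Of its 21 members of at least 50 CPM, 19 were called higher. The lowest of the 25 log2 fold changes was 0.24.

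Part of this list is known for a shared promoter sequence, the ER stress response element, read here as CCAAT and CCACG with 9 bases of any kind between them, on either strand. It was looked for in the 250 bases before each start site in RefSeq's promoters (GRCm38.p6). It stood in 23 of 17167 windows of tested genes, or 0.134%, in 7 of 739 windows of the genes higher under 3 scalings (0.947%), and in 8 of the 20 windows of ER list genes (40%). Those 8 were Calr, Canx, Creld2, Dnajc3, Hsp90b1, Hspa5, Pdia6 and Syvn1. The 7 windows of the genes higher under 3 scalings all belong to these ER genes. So do all 8 found in the 4112 windows of genes of at least 50 CPM (0.195%). The element is part of the reason such genes are textbook members, so its share in the list is a description. The 250 bases upstream of 4 of them are printed, 5′ to 3′ on the strand of the gene, since they encode the chaperones and folding enzymes described next. The element is in capitals.
Hspa5, chr2:34771840-34772089, + strand: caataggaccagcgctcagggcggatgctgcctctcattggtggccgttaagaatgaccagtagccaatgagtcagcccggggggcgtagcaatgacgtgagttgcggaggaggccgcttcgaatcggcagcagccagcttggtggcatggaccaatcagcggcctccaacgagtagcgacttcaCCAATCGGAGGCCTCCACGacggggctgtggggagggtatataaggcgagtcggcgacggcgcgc
Hsp90b1, chr10:86705445-86705694, - strand: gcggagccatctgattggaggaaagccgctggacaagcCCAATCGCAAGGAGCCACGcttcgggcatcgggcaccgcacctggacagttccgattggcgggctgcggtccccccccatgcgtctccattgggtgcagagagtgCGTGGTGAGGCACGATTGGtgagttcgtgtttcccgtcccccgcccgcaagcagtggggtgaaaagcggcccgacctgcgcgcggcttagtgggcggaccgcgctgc
Pdia6, chr12:17266339-17266588, + strand: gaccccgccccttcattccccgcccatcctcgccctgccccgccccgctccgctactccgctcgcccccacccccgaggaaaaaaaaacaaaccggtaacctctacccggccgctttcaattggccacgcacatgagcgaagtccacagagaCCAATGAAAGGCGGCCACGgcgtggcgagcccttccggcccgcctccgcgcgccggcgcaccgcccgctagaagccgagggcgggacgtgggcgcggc
Calr, chr8:84846932-84847181, - strand: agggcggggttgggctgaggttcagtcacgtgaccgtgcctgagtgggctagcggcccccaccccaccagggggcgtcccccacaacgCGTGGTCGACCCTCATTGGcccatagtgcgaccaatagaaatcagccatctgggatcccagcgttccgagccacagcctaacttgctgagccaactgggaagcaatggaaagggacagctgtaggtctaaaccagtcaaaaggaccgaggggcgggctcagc
In Hspa5 the element began 65 bases before the start site, in Pdia6 98, in Calr 162 and in Hsp90b1, which has 2 matches, 212 at the first. All 8 genes with the element were called higher, with log2 fold changes from 1.00 to 1.67 and a median of 1.43, and 7 of them under the 3 scalings. Of the 12 ER genes whose window lacks these letters 9 were called higher, with a range of 0.56 to 1.62 and a median of 1.30. The ranges overlap.

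Hspa5 encodes BiP, the main ER chaperone of the Hsp70 family. It stood at 25150, 22570, 16610 and 19070 CPM in FosGFP+ and at 6469, 6403, 8486 and 4934 CPM in FosGFP-. The lowest FosGFP+ library lay far above the highest FosGFP- library, each being replicate 3 of its group, and the log2 fold change was 1.67 ± 0.20 (edgeR adjusted p = 1.61e-04). Hsp90b1, the Hsp90 of the ER, stood at 2149, 2428, 2032 and 1963 CPM in FosGFP+ and at 622, 666, 876 and 602 CPM in FosGFP-. Here too the groups did not overlap and FosGFP- replicate 3 was the highest of its group (1.63 ± 0.18, edgeR adjusted p = 1.14e-04).

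The lectin chaperone gene Calr rose from 561 ± 124 to 1475 ± 84.5 CPM (SD, n = 4 each). Its membrane-bound partner Canx rose by 1.00 ± 0.20, a call lost with TMM of well-expressed genes (0.42, edgeR adjusted p = 0.0609). The disulfide isomerase genes Pdia3 and Pdia6, whose products form cross-links in new proteins, rose by 1.31 ± 0.19 and 1.58 ± 0.20. Manf, a secreted ER protein, rose by 1.49 ± 0.22 and the co-chaperone gene Dnajb9 by 1.62 ± 0.23.

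Genes of the arm that returns misfolded proteins to the cytosol rose as well. Herpud1, a scaffold of that machinery, rose by 1.44 ± 0.19, the ubiquitin ligase gene Syvn1 by 1.47 ± 0.23 and the mannosidase-like gene Edem1 by 1.35 ± 0.25. Of the regulators, Xbp1 stood at 1453, 1705, 1209 and 1628 CPM in FosGFP+ and at 470, 552, 736 and 493 CPM in FosGFP-. All 4 FosGFP+ libraries exceeded all 4 FosGFP- libraries (1.41 ± 0.19, edgeR adjusted p = 2.55e-04). Atf6 rose by 1.29 ± 0.20. The other 2 sensor genes did not pass the test, Ern1 (Ire1) at 0.69 ± 0.25 and Eif2ak3 (Perk) at 0.77 ± 0.31, with edgeR adjusted p-values of 0.0856 and 0.121. Unspliced and spliced Xbp1 cannot be told apart in counts per gene.

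**Figure D3:**
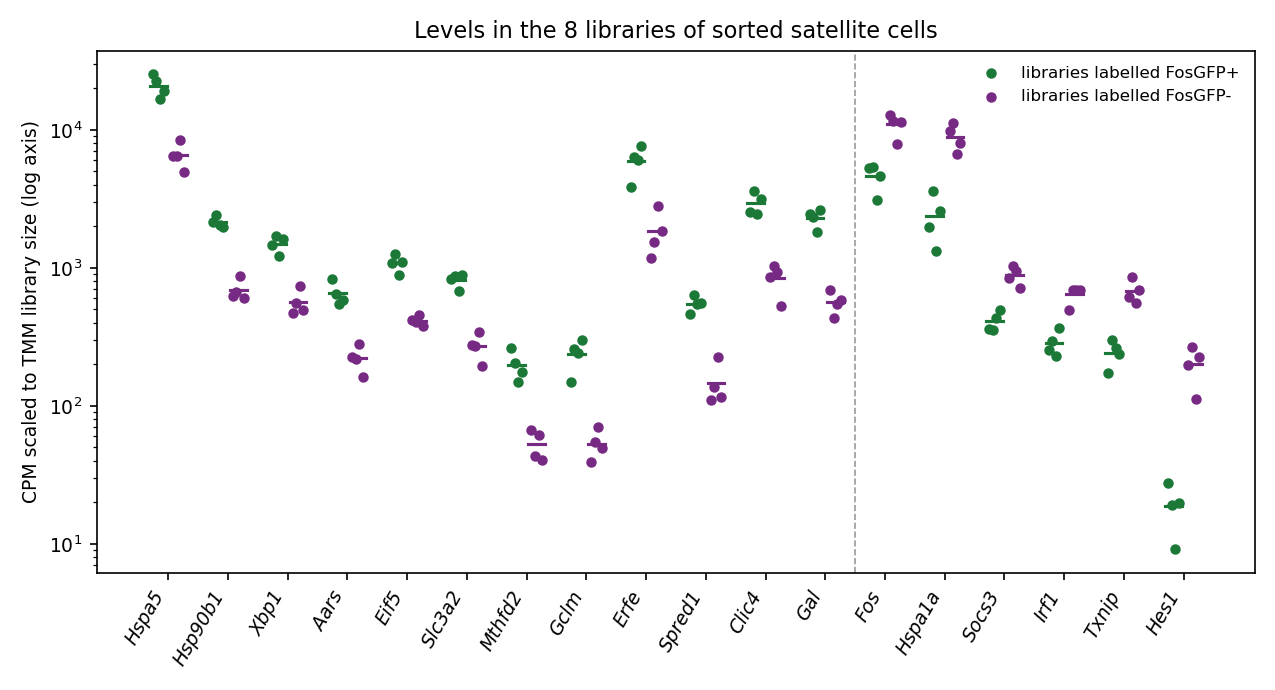
CPM on a log axis of 12 genes that were higher (left of the dashed line) and 6 that were lower (right) in the libraries labelled FosGFP+. Each point is a library, short bars are group means, and in each of the 18 genes the groups do not overlap.

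Cytosolic tRNA synthetases load amino acids onto tRNA. Of 22 tested genes 15 were called higher, 10 under the 3 scalings, with a median of 0.94. Aars, for alanine, stood at 828, 645, 548 and 588 CPM in FosGFP+ and at 225, 216, 278 and 162 CPM in FosGFP-. FosGFP- replicate 4 was the lowest of the 8 (1.56 ± 0.20, edgeR adjusted p = 2.17e-04). Iars (isoleucine) rose by 1.60 ± 0.17, Gars (glycine) by 1.58 ± 0.20, Tars (threonine) by 1.60 ± 0.22 and Cars (cysteine) by 1.39 ± 0.22. The 7 genes of the list that were not called had log2 fold changes down to -0.04. Xpot, which exports tRNA from the nucleus, rose by 1.53 ± 0.23.

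Initiation factors bring the ribosome to the start codon. Of 39 tested genes 24 were called higher, 15 under the 3 scalings, with a median of 0.93. The factor gene Eif5, whose product triggers GTP hydrolysis at the start codon, stood at 1086, 1252, 890 and 1103 CPM in FosGFP+ and at 416, 405, 456 and 380 CPM in FosGFP-. The values were tight within each group and the groups did not overlap (1.39 ± 0.17, edgeR adjusted p = 1.61e-04). The cap-binding protein gene Eif4e rose by 1.34 ± 0.18, its scaffold gene Eif4g1 by 1.19 ± 0.21, Eif3b by 1.30 ± 0.18 and Eif2s1, the subunit that stress kinases phosphorylate, by 1.14 ± 0.20. Eif4ebp1, which encodes an inhibitor of Eif4e, rose too, by 1.22 ± 0.21.

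Genes of the cytosolic ribosomal proteins moved less. Of 77 tested, 5 were called higher under TMM, at a median of 0.41. Among the 25 members of at least 50 CPM a single gene, Rplp0, was called, where 41.9% of all genes at that level were. Rplp0 stood at 569, 598, 514 and 600 CPM in FosGFP+ and at 321, 324, 296 and 320 CPM in FosGFP- and rose by 0.85 ± 0.15, a call lost with TMM of well-expressed genes (0.26, edgeR adjusted p = 0.147). Under that scaling the list median was -0.17. Ribosomal proteins have many processed pseudogenes, so reads can be split between copies.

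Amino acid transporters bring the substrates of the synthetases into the cell. Of 23 amino acid transporter genes tested 8 were called higher and 1 lower, with a median of 0.65. Of the 13 members of at least 50 CPM 7 were called higher, against a background of 41.9%. With TMM of well-expressed genes 6 were higher and 6 lower, at a median of 0.08. Slc3a2, the heavy chain shared by several exchangers, stood at 822, 878, 677 and 882 CPM in FosGFP+ and at 274, 270, 340 and 195 CPM in FosGFP- (1.59 ± 0.19, edgeR adjusted p = 1.61e-04). Its partner in leucine uptake, Slc7a5, stood at 750, 580, 418 and 570 CPM in FosGFP+ and at 273, 196, 265 and 77.1 CPM in FosGFP-. The groups did not overlap, and FosGFP- replicate 4 was far below the rest (1.51 ± 0.31). The glutamine transporter gene Slc1a5 rose by 1.46 ± 0.18.

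The integrated stress response raises many of these genes through the factor Atf4. Of 19 genes of that list 7 were called higher, 3 under the 3 scalings, at a median of 0.59. Of the 11 members of at least 50 CPM 5 were called higher, a share near the background of 41.9%. With TMM of well-expressed genes 3 were higher and 1 lower, at a median of 0.02. The mitochondrial one-carbon enzyme gene Mthfd2 stood at 262, 203, 148 and 177 CPM in FosGFP+ and at 66.4, 43.1, 61 and 40.3 CPM in FosGFP-. No FosGFP- library came near the lowest FosGFP+ library (1.90 ± 0.23, edgeR adjusted p = 1.61e-04). Asns, which makes asparagine, rose by 1.55 ± 0.34 and Sesn2, a sensor that restrains mTORC1, by 1.60 ± 0.27. Atf4 itself did not pass the test, at 712 ± 44.3 against 517 ± 57 CPM (SD, n = 4 each) (0.46 ± 0.16, edgeR adjusted p = 0.0719), nor did Ddit3, which encodes the death-promoting factor CHOP, at 0.22 ± 0.20 (0.515).

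Of 26 nucleotide synthesis genes 8 were called higher, and with TMM of well-expressed genes 4 higher and 5 lower. Those that rose included Ctps, which makes CTP (1.54 ± 0.24), the pyrimidine enzyme gene Umps (1.35 ± 0.22) and Impdh1, on the way to GTP (1.25 ± 0.23). Of 46 nuclear transport genes 17 were called higher and 8 under the 3 scalings, with 6 lower under TMM of well-expressed genes. Of the 31 members of at least 50 CPM 15 were called higher, a share near the background of 41.9%. The nucleoporin gene Nup98 rose by 1.43 ± 0.19, the importin gene Ipo5 by 1.40 ± 0.19 and the GTPase gene Ran by 1.22 ± 0.17. Mitochondrial import and chaperone genes numbered 7 higher and 1 lower of 22, with Timm10 at 1.32 ± 0.19, Grpel1 at 1.21 ± 0.18 and its partner Hspa9, the mitochondrial Hsp70, at 1.16 ± 0.16.

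Proteasome genes show how a count can rest on the scaling. Of 35 tested, 25 were called higher under TMM, 6 with total counts, 3 with TMM of well-expressed genes and 12 after subtraction of the background. The 3 called under the 3 scalings were the activator gene Psme3 (1.39 ± 0.26), Psmd11 of the lid (1.27 ± 0.17) and Psmb4 of the core (1.12 ± 0.17). Psmd11 varied little, at 263, 268, 259 and 262 CPM in FosGFP+ and at 111, 98.5, 128 and 98.3 CPM in FosGFP-. Of 15 genes of the cytosolic chaperonin and prefoldin, which fold actin and tubulin, 10 were called higher under TMM and 3 under the 3 scalings. Tcp1 rose by 1.19 ± 0.19 and Cct3 by 1.06 ± 0.17.

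**Figure D4:**
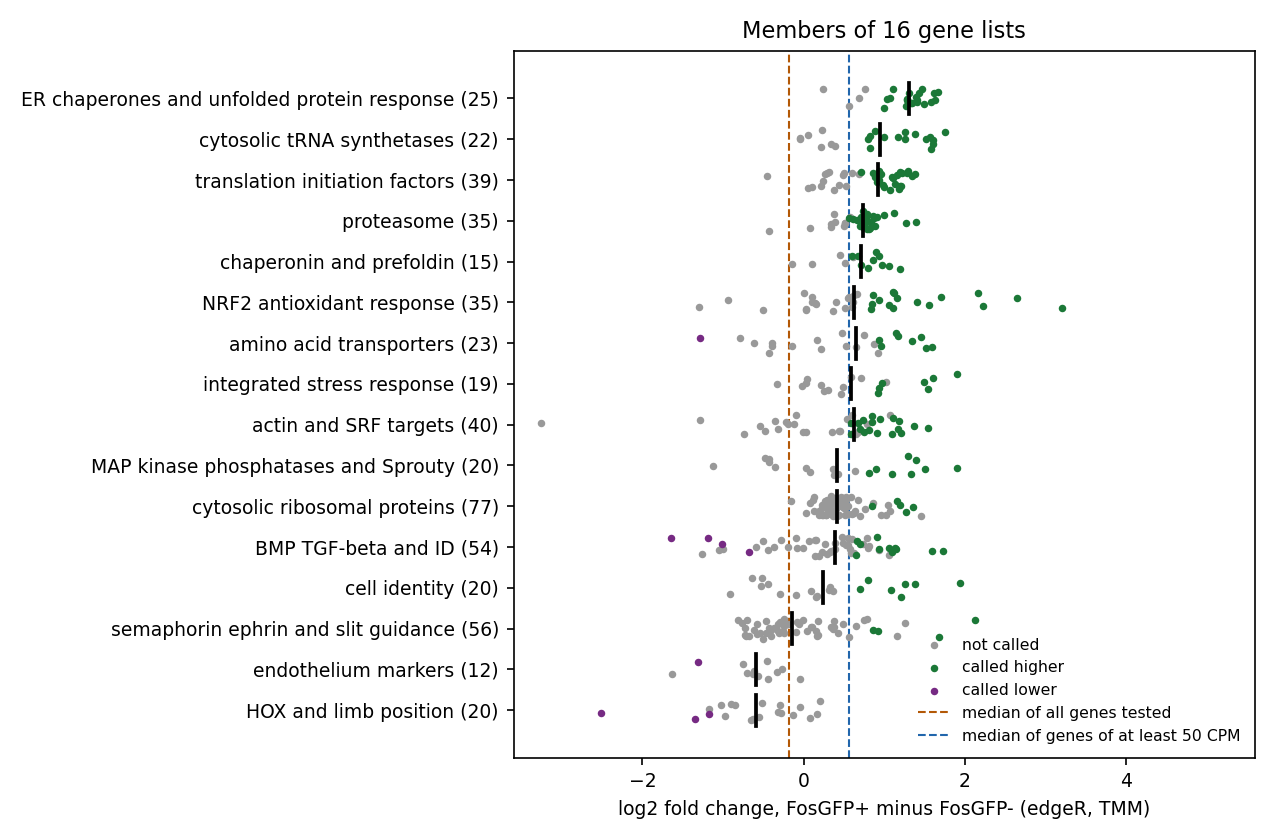
Log2 fold changes (FosGFP+ minus FosGFP-, TMM scaling) of the tested members of 16 gene lists, with the number tested in parentheses. Points are genes, green where called higher and purple where called lower, black bars are list medians, and dashed lines are the medians of all genes tested (-0.18) and of genes of at least 50 CPM (0.57). The ER list lies wholly above 0, with its median at 1.31.

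Nfe2l2 encodes NRF2, a transcription factor held in check by Keap1 until oxidants release it. It then pairs with a small MAF protein at antioxidant response elements. Of 35 genes of this response 16 were called higher and 11 under the 3 scalings, of 20 members of at least 50 CPM 14 and 11. The members' log2 fold changes ran from -1.3 to 3.2 with a median of 0.62. With TMM of well-expressed genes 11 were called higher and 5 lower. Nfe2l2 rose by 1.16 ± 0.20 and its MAF partner gene Mafg by 1.06 ± 0.21. Keap1 stood at 15.4 ± 6.34 against 29.6 ± 10.1 CPM (SD, n = 4 each) (-0.94 ± 0.34, edgeR adjusted p = 0.0831), which did not pass the test. It was among the 5 called lower with TMM of well-expressed genes.

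The letters TGACNNNGC, the core of the antioxidant response element, stood in 10 of 37 windows of this list (27.0%), against 11.1% of the windows of all tested genes and 14.3% of those of genes higher under 3 scalings. Promoters of 3 members with large rises are printed, with that core in capitals in Gclm and Txnrd1. In Srxn1 the capitals mark TGANTCA, the AP-1 motif, which overlaps in sequence with the longer element. That motif stood in 5.55% of windows of all tested genes, in 6.22% of those of genes higher under 3 scalings and in 5.4% of those of genes lower under them.
Gclm, chr3:122245307-122245556, + strand: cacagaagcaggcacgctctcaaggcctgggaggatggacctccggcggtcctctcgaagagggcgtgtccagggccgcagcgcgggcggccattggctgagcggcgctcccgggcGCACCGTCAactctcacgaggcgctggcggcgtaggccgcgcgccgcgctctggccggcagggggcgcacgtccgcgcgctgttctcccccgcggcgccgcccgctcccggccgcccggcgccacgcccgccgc
Txnrd1, chr10:82858956-82859205, + strand: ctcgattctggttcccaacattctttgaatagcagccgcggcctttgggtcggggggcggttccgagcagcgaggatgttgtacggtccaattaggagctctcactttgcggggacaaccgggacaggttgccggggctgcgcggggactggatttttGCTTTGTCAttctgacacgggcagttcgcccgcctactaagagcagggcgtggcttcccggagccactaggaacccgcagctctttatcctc
Srxn1, chr2:152105274-152105523, + strand: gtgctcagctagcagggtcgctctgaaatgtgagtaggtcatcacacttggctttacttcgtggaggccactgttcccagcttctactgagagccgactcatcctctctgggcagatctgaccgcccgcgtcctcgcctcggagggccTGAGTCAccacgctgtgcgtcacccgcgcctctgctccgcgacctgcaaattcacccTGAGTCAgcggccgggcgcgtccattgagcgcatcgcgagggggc
The first match began 134 bases before the start site in Gclm, 92 in Txnrd1 and 102 in Srxn1, which has 2 matches to the AP-1 motif. Txnrd1 has 3 start sites with a window each, and the first window that held the core is the one printed. That window lies inside the gene, which begins at 82833951. These matches are letters in a sequence, and no binding was measured here.

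Glutathione is made in 2 steps, the first by the pair Gclc and Gclm. Gclm, the modifier subunit, stood at 148, 260, 243 and 301 CPM in FosGFP+ and at 39.2, 54.3, 70.2 and 49.3 CPM in FosGFP-. FosGFP+ replicate 1 was the lowest of its group and still above each FosGFP- library (2.16 ± 0.24, edgeR adjusted p = 1.25e-04). The catalytic subunit gene Gclc rose by 1.56 ± 0.21 and Esd, an S-formylglutathione hydrolase, by 1.70 ± 0.22. In the thioredoxin branch Srxn1, which repairs overoxidized peroxiredoxins, stood at 1777, 2563, 1902 and 2628 CPM in FosGFP+ and at 288, 334, 471 and 318 CPM in FosGFP-. Txnrd1, thioredoxin reductase, stood at 1236, 2013, 1697 and 2163 CPM in FosGFP+ and at 273, 418, 532 and 292 CPM in FosGFP-. In both genes the lowest FosGFP+ library was replicate 1 and the highest FosGFP- library was replicate 3, with no overlap (2.65 ± 0.21 and 2.23 ± 0.24). The thioredoxin gene Txn1 rose by 1.41 ± 0.18, the peroxiredoxin gene Prdx6 by 1.13 ± 0.17 and the glutathione transferase gene Gstp1 by 1.11 ± 0.19. Sqstm1 encodes p62, which draws Keap1 into autophagy, and rose from 3268 ± 221 to 7072 ± 666 CPM (SD, n = 4 each), or by 1.11 ± 0.16.

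Hmox1, which breaks down heme and frees its iron, had the steepest rise of the list. It stood at 1644, 3229, 3141 and 4002 CPM in FosGFP+ and at 220, 387, 428 and 268 CPM in FosGFP-. The spread within FosGFP+ was wide, from replicate 1 to replicate 4, and the lowest of them lay well above the highest FosGFP- library (3.21 ± 0.28, edgeR adjusted p = 2.13e-05). Of 19 genes that handle iron 8 were called higher and 3 under the 3 scalings. All 8 were among the 12 members of at least 50 CPM, where the background was 41.9%. With TMM of well-expressed genes 3 were higher and 3 lower, at a median of -0.03. Slc39a14, an importer of zinc and of iron not bound to transferrin, stood at 1713, 2782, 2807 and 2554 CPM in FosGFP+ and at 575, 800, 1405 and 426 CPM in FosGFP- (1.62 ± 0.30). The iron transporter gene Slc11a2 rose by 1.81 ± 0.32. The ferritin heavy chain gene Fth1 rose by 0.89 ± 0.16, a call lost with TMM of well-expressed genes (0.29, edgeR adjusted p = 0.118). Erfe, which in the marrow encodes erythroferrone and is also known as myonectin in muscle, was among the most abundant of the higher genes, at 3840, 6340, 6059 and 7608 CPM in FosGFP+ and at 1174, 1541, 2821 and 1849 CPM in FosGFP-. Its groups did not overlap (1.69 ± 0.26, edgeR adjusted p = 5.80e-04).

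Growth factors act on satellite cells through receptor kinases and the Ras and MAP kinase cascade, which induces its own inhibitors. Of 20 genes of MAP kinase phosphatases, Sprouty and Spred proteins 8 were called higher, 5 under the 3 scalings, at a median of 0.41. Spred1, which blocks Ras signalling, stood at 465, 631, 548 and 557 CPM in FosGFP+ and at 110, 137, 226 and 115 CPM in FosGFP-. Replicate 3 was the highest FosGFP- library and still below the FosGFP+ range (1.90 ± 0.23, edgeR adjusted p = 1.61e-04). The phosphatase genes Dusp10, Dusp5 and Dusp6 rose by 1.40 ± 0.21, 1.33 ± 0.25 and 1.29 ± 0.19. Of the receptors, Met, which binds hepatocyte growth factor, stood at 152, 239, 203 and 202 CPM in FosGFP+ and at 83.3, 110, 88.3 and 51.7 CPM in FosGFP- (1.26 ± 0.23). Plat, the tissue plasminogen activator gene, rose by 1.29 ± 0.20, and Ereg, an EGF receptor ligand, from 5.15 ± 1.30 to 17.4 ± 2.74 CPM (SD, n = 4 each).

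Of 54 genes of the BMP and TGF-beta pathways 11 were called higher and 4 lower, 3 and 4 under the 3 scalings. The transducer gene Smad1 rose by 1.59 ± 0.26, the receptor gene Tgfbr2 by 1.14 ± 0.23 and Tgif1, a repressor of SMAD targets, by 1.73 ± 0.19. In the other direction Id1, a BMP target that blocks bHLH factors such as Myod1, stood at 47.7, 56.2, 49.2 and 61 CPM in FosGFP+ and at 110, 99.6, 93.7 and 129 CPM in FosGFP-. The groups did not overlap, and it fell by 1.01 ± 0.19. Gdf15, a stress-induced member of the family, fell by 1.64 ± 0.30.

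Most genes of the guidance and Wnt lists were not called. Of 56 semaphorin, ephrin and slit genes 4 were called higher, at a median of -0.14. The balance turned with the scaling, to 2 higher and 7 lower with total counts and 2 and 20 with TMM of well-expressed genes. Sema4f stood at 59.3, 80.4, 60.6 and 52 CPM in FosGFP+ and at 9.36, 14.9, 17.5 and 16.1 CPM in FosGFP- (2.13 ± 0.25) and the ephrin gene Efnb2 rose by 1.69 ± 0.29. Of 48 Wnt genes 6 were called higher, at a median of 0.10, among them the receptor genes Fzd1 (1.52 ± 0.26) and Ror1 (1.16 ± 0.22). Of the 9 Wnt genes of at least 50 CPM 4 were called higher, a share near the background of 41.9%. With TMM of well-expressed genes 2 Wnt genes were higher and 5 lower, at a median of -0.49.

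The cytoskeleton list of actin genes and targets of the serum response factor held 18 higher calls of 40, and 7 under the 3 scalings. Vcl encodes vinculin, which ties actin to integrins, and rose by 1.20 ± 0.24. The filamin gene Flnc stood at 3061, 2075, 2080 and 2669 CPM in FosGFP+ and at 1045, 1083, 1039 and 228 CPM in FosGFP-. It rose by 1.54 ± 0.35, FosGFP- replicate 4 lay far below the other FosGFP- libraries, and with no filter on low counts it was at 1.62 and not called (edgeR adjusted p = 0.121). Pdlim7, an adaptor at actin fibres, rose by 1.37 ± 0.30. Of 17 tubulin genes 3 were called higher and 1 lower. These 3 were among the 7 members of at least 50 CPM, a share near the background of 41.9%. With TMM of well-expressed genes 2 tubulin genes were higher and 7 lower. Tuba1c, an alpha-tubulin gene close in sequence to others, stood at 116, 127, 127 and 131 CPM in FosGFP+ and at 35.2, 37.6, 48.6 and 37 CPM in FosGFP- (1.66 ± 0.18), and Tubb6 rose by 1.12 ± 0.20. Lmna, which encodes lamin A of the nuclear envelope, rose by 1.27 ± 0.19, and Clic4, a chloride channel protein, stood at 2547, 3605, 2462 and 3145 CPM in FosGFP+ and at 860, 1029, 939 and 529 CPM in FosGFP- (1.81 ± 0.22, edgeR adjusted p = 1.61e-04).

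Surface and secreted proteins included several of the largest rises. Pdpn, podoplanin, stood at 498, 656, 546 and 880 CPM in FosGFP+ and at 154, 220, 185 and 86.3 CPM in FosGFP- (2.00 ± 0.26). The tetraspanin gene Cd82 rose by 1.27 ± 0.19 and the matrix protease gene Adamts4 by 1.57 ± 0.24. Gal, which encodes the neuropeptide galanin, stood at 2453, 2334, 1814 and 2614 CPM in FosGFP+ and at 685, 432, 544 and 587 CPM in FosGFP-. The values were close within groups and the ranges were far apart (2.04 ± 0.19, edgeR adjusted p = 3.29e-05). Musk, the kinase of the neuromuscular synapse, rose by 1.30 ± 0.26, although 2 of the 17 genes of the acetylcholine receptor and postsynapse list were called and its median was -0.14. Of 20 integrin genes 2 were called higher, Itga5, the fibronectin receptor chain (1.48 ± 0.32), and Itgb1, the chain used in the sort, which lost its call with total counts (0.42, edgeR adjusted p = 0.0607) and with TMM of well-expressed genes (0.23, 0.194).

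Pdp1, the phosphatase that activates pyruvate dehydrogenase, stood at 275, 500, 311 and 345 CPM in FosGFP+ and at 76.4, 95, 87.4 and 80.3 CPM in FosGFP- (2.08 ± 0.21, edgeR adjusted p = 6.17e-05). Ampd3, which deaminates AMP, rose by 1.94 ± 0.27, and Igf2bp2, an RNA-binding protein that aids translation, by 1.97 ± 0.24. Of 19 hypoxia targets 8 were called higher and 4 under the 3 scalings, with the factor gene Hif1a itself at 1.48 ± 0.20, the lipid droplet gene Hilpda at 1.81 ± 0.24 and Ndrg1 at 1.68 ± 0.21. Of the 8 hypoxia targets of at least 50 CPM 6 were called higher, against a background of 41.9%. With TMM of well-expressed genes 4 hypoxia targets were higher and 4 lower, at a median of -0.07. Of 25 cholesterol synthesis genes 7 were called higher and 1 lower, and of the 11 members of at least 50 CPM 5 higher, near the background of 41.9%. Their regulator gene Srebf2 rose by 1.11 ± 0.21 and the enzyme gene Cyp51 by 1.43 ± 0.31. Of 40 lysosome and autophagy genes 12 were called higher and 1 lower, all 12 among the 28 members of at least 50 CPM, a share near the background of 41.9%. With TMM of well-expressed genes 5 were higher and 7 lower. Members that rose included Lamp2 of the lysosomal membrane at 1.27 ± 0.18 and Atg2a, a lipid transfer protein, at 1.52 ± 0.31.

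Among transcription regulators, Klf5 stood at 45.8, 57.2, 44.1 and 59 CPM in FosGFP+ and at 13.6, 12.3, 18.1 and 10.8 CPM in FosGFP- (1.91 ± 0.24), 1 of 5 higher calls among 17 Kruppel-like factor genes. Klf9 rose by 1.08 ± 0.19 and the co-regulator gene Sbno2 by 1.47 ± 0.25. Of 19 clock genes 6 were called higher and 1 lower, 3 and 1 under the 3 scalings. Of the 13 members of at least 50 CPM 5 were called higher, a share near the background of 41.9%, and with TMM of well-expressed genes 3 were higher and 6 lower. The repressor genes Nr1d1, Nr1d2 and Cry1 rose by 1.33 ± 0.20, 1.10 ± 0.26 and 1.32 ± 0.18. Of 26 noncoding genes 9 were called higher. At 50 CPM or more the count was 6 of 11, against a background of 41.9%. With TMM of well-expressed genes 3 noncoding genes were higher and 5 lower, at a median of -0.15. Mir22hg, the host of a microRNA, stood at 234, 362, 311 and 288 CPM in FosGFP+ and at 46.8, 68, 73 and 60.6 CPM in FosGFP- (2.27 ± 0.20, edgeR adjusted p = 2.47e-05), and Mir17hg and Snhg17, hosts of microRNAs and of small nucleolar RNAs, rose by 1.70 ± 0.25 and 1.44 ± 0.20. Counts here are of the host transcripts.

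Of the members of at least 50 CPM, 19 of 21 were called higher in the ER list, 10 of 10 of the chaperonin and prefoldin, 23 of 29 of the proteasome, 13 of 17 of the synthetases, 14 of 20 of the NRF2 response, 18 of 26 of the actin list and 22 of 34 of the initiation factors. The shares were near or below the background of 41.9% in mitochondrial import (5 of 12), Kruppel-like factors (4 of 10), glucocorticoid targets (7 of 17), satellite cell identity (7 of 18) and the BMP and TGF-beta pathways (9 of 29). The integrated stress response (5 of 11) and cholesterol synthesis (5 of 11) were near it too. Those counts are with TMM alone. Under the 3 scalings, 16.2% of genes of at least 50 CPM were called higher. The ER list then had 16 of 21, the synthetases 9 of 17, the NRF2 response 11 of 20 and the initiation factors 15 of 34. The actin list had 7 of 26, the chaperonin and prefoldin 3 of 10 and the proteasome 3 of 29. Across scalings the ER, synthetase and initiation factor medians lay between 0.35 and 1.35, whereas those of ribosomal proteins, MAP kinase phosphatases and BMP genes fell to -0.17 or -0.18 with TMM of well-expressed genes. Under that scaling the proteasome, chaperonin, actin and NRF2 medians were 0.15, 0.12, 0.06 and 0.03.

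**Figure D5:**
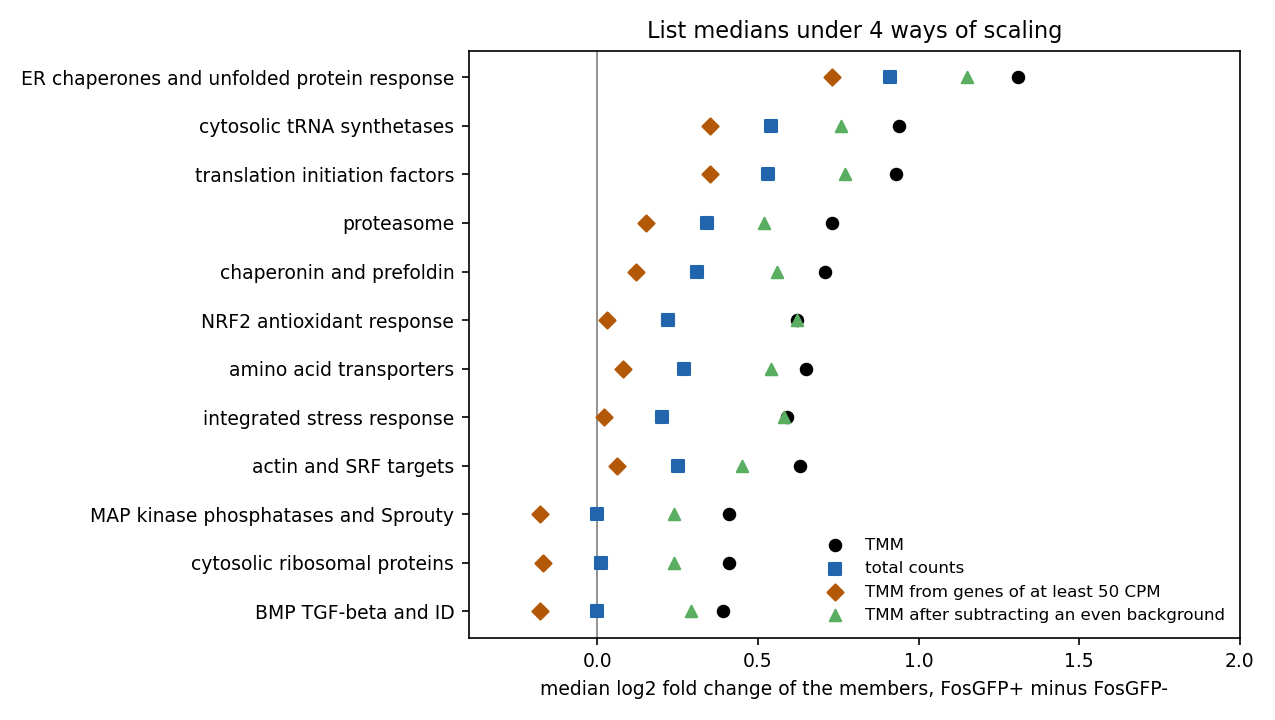
Median log2 fold change (FosGFP+ minus FosGFP-) of the members of 12 gene lists under TMM, under total counts, under TMM from well-expressed genes (50 CPM or more) and under TMM after subtraction of the even background. The ER list has the highest median in each, from 0.73 to 1.31, and the last 3 lists are at or below 0.01 with total counts.

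The well-expressed lower genes were few, 41 of 4002 (1.02%),. Hspa1a, an inducible cytosolic chaperone gene, stood at 1989, 3598, 1333 and 2565 CPM in FosGFP+ and at 9756, 11110, 6686 and 7995 CPM in FosGFP- and fell by 1.91 ± 0.26 (SE). Hspa1b, a near-identical copy, fell by 1.63 ± 0.26, and how reads were divided between the copies is uncertain. Their co-chaperone gene Dnajb1 stood at 4232, 7163, 2575 and 4927 CPM in FosGFP+ and at 10260, 11900, 7310 and 7650 CPM in FosGFP- and fell by 0.97 ± 0.26 (edgeR adjusted p = 0.0212). With an edgeR adjusted p in parentheses, that call was lost when FosGFP+ replicate 1 (0.0761), 3 (0.0632) or 4 (0.0714) was left out, and likewise FosGFP- replicate 1 (0.0646) or 2 (0.0859). The mitochondrial chaperonin gene Hspd1, another heat shock target, stood at 449 ± 157 against 401 ± 44.4 CPM (SD, n = 4 each) and was not called (0.16 ± 0.22, edgeR adjusted p = 0.669). No list of heat shock genes was counted, and these were picked from the lower calls after their values were seen.

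The next 4 genes, like Fos known to be switched on quickly by stimuli, were also picked from the lower calls after their values were seen. Nr4a1, an orphan nuclear receptor, stood at 766, 680, 475 and 715 CPM in FosGFP+ and at 2415, 2292, 1631 and 1065 CPM in FosGFP- and fell by 1.49 ± 0.24 (edgeR adjusted p = 8.63e-04). Junb, an AP-1 subunit, fell from 5000 ± 308 to 3098 ± 245 CPM (SD, n = 4 each). Zfp36, which destroys AU-rich mRNA, fell by 0.85 ± 0.17 and Btg2, which slows the cycle, by 0.73 ± 0.16. In each of these 4 genes the groups did not overlap.

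Socs3, the feedback inhibitor of cytokine receptors, stood at 362, 353, 435 and 497 CPM in FosGFP+ and at 847, 1029, 951 and 710 CPM in FosGFP- and fell by 1.10 ± 0.18 (edgeR adjusted p = 9.25e-04). The interferon factor gene Irf1 stood at 254, 295, 229 and 366 CPM in FosGFP+ and at 498, 692, 685 and 694 CPM in FosGFP- and fell by 1.17 ± 0.19. Of 22 glucocorticoid targets 7 were called higher and 3 lower. Tsc22d3 stood at 47.2, 123, 128 and 127 CPM in FosGFP+ and at 241, 441, 342 and 576 CPM in FosGFP-, with all FosGFP+ libraries below the FosGFP- range, and fell by 1.91 ± 0.31. Ddit4, an mTORC1 inhibitor, fell by 2.01 ± 0.36. Angptl4, of the same list, rose by 1.44 ± 0.28. Txnip binds and inhibits thioredoxin and restrains glucose uptake. It stood at 172, 301, 261 and 236 CPM in FosGFP+ and at 614, 859, 552 and 696 CPM in FosGFP- and fell by 1.49 ± 0.20, opposite to Txn1 and Txnrd1.

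Notch keeps satellite cells at rest, and the bHLH repressor gene Hes1 is 1 of its targets. Hes1 was picked from the lower calls after its values were seen. The target genes Hey1 and Heyl and the receptor gene Notch3 were in the satellite cell identity list. Of the 20 tested genes of that list 0 were called lower with TMM and 8 with TMM of well-expressed genes. Notch signalling itself was not tested. Hes1 stood at 27.6, 19, 9.10 and 19.8 CPM in FosGFP+ and at 198, 264, 112 and 224 CPM in FosGFP-. The highest FosGFP+ library lay far below the lowest FosGFP- library, and the gene fell by 3.39 ± 0.32 (edgeR adjusted p = 3.29e-05). Hes6, which antagonizes Hes1, fell as well, by 1.71 ± 0.37. Apod, a lipid-binding secreted protein, stood at 3.81, 3.13, 6.83 and 2.83 CPM in FosGFP+ and at 43.7, 81.3, 52.6 and 53.5 CPM in FosGFP- and fell by 3.81 ± 0.33. Less known genes among the largest falls were Tmem246, a Golgi membrane protein gene (-1.63 ± 0.24), and Scrn3 (-1.68 ± 0.33).

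Hox genes keep a record of a cell's position along the body, and Hoxa9 and Hoxa10 mark the limb. Of 20 tested Hox and limb position genes 3 were called lower, at a median of -0.59. A single member had a mean of at least 50 CPM. Hoxa10 stood at 5.24, 2.92, 4.83 and 5.44 CPM in FosGFP+ and at 30.7, 35.9, 18.7 and 20.3 CPM in FosGFP- and fell by 2.52 ± 0.35. Hoxa9 stood at 5.72, 8.98, 10.2 and 5.23 CPM in FosGFP+ and at 19.6, 20.4, 18.1 and 18.8 CPM in FosGFP-, with a log2 fold change of -1.35 ± 0.32 (edgeR adjusted p = 0.0105). After subtraction of the even background it was at -2.37 and was not called (edgeR adjusted p = 0.0561). Cells came from several muscles, and the part of muscle position in these values was not tested.

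Markers of the sorted cells were checked in the same fit. Of 20 satellite cell identity genes 7 were called higher and 0 lower, 5 higher under the 3 scalings, at a median of 0.24. This balance depended on the scaling. With total counts 5 were higher and 6 lower, and with TMM of well-expressed genes 5 and 8, at a median of -0.31. After subtraction of the even background 6 were higher and 3 lower, at a median of 0.04. Pax7, the factor that defines satellite cells, stood at 79.6, 43.6, 38.7 and 49.9 CPM in FosGFP+ and at 82.6, 85.8, 77.3 and 41.8 CPM in FosGFP-. The groups overlapped (-0.44 ± 0.27, edgeR adjusted p = 0.305). Myf5 and Cdh15 (M-cadherin) were not called, at 242 ± 23.6 against 228 ± 17.6 CPM (SD, n = 4 each) and 359 ± 67.4 against 381 ± 85.8 CPM (SD, n = 4 each). The calcitonin receptor gene Calcr, which holds cells at rest, was at 144 ± 16.2 against 205 ± 36.7 CPM (SD, n = 4 each) (-0.51 ± 0.18, edgeR adjusted p = 0.0791). With TMM of well-expressed genes Pax7, Myf5, Cdh15 and Calcr were all called lower. Vcam1 rose by 1.20 ± 0.20, Des (desmin) by 1.08 ± 0.17, Sdc4 by 1.39 ± 0.24 and Myod1 by 1.94 ± 0.21. In bulk libraries, fewer cells of a type and less RNA per cell cannot be told apart.

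Of the sort markers, Cxcr4 stood at 55.1 ± 8.31 against 44.4 ± 12.4 CPM (SD, n = 4 each) and Itgb1 at 785 ± 125 against 449 ± 80.8 CPM (SD, n = 4 each). Raw counts of Itgam (CD11b) were 5 to 10 per library in FosGFP+ and 5 to 17 in FosGFP-, and of Ly6a (Sca1) 1 to 8 and 1 to 5. Ptprc (CD45) had 142 to 215 and 151 to 249 counts, and Pecam1 (CD31) 62 to 79 and 76 to 94. Ptprc and Pecam1 were not called with TMM (-0.30 ± 0.24 and -0.45 ± 0.26), and both were called lower with TMM of well-expressed genes.

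Markers of other cells were summed over each library. Summed over 7 tested leukocyte markers the level was 53.5 to 99.9 CPM in FosGFP+ and 79.7 to 145 in FosGFP-, with 0 called by edgeR, 1 lower at an unadjusted p under 0.05, 1 by DESeq2 and 0 by limma-voom. With TMM of well-expressed genes 2 of the 7 were called lower, near the share of all genes tested (5252 of 20698). Over 12 endothelial markers it was 229.8 to 301 and 303.5 to 411 CPM. These sums did not overlap, and all 12 log2 fold changes were below 0, at a median of -0.59. Of the 12, 4 did not overlap, 3 had an unadjusted p under 0.05, and 9 were called lower with TMM of well-expressed genes. Over all 20698 genes tested 6.45% lay wholly lower in FosGFP+, and 5252 were called lower under that scaling. With TMM, 5457 of them had an unadjusted p under 0.05 in either direction. A single endothelial marker had a mean of at least 50 CPM. Ramp2 was the endothelial marker called with TMM (-1.31 ± 0.29). Sums over 10 smooth muscle and pericyte markers were 843 to 1092 and 383 to 940 CPM, over 7 Schwann markers 171.5 to 303 and 218.5 to 310, over 20 genes of mature fibres 1531 to 2657 and 1531 to 2000, and over 3 erythroid markers 10.0 to 13.1 and 12.8 to 16.1. Over 13 markers of fibro-adipogenic progenitors the sums were 4337 to 5554 and 2726 to 5680 CPM, and over 6 tendon markers 30.5 to 710 and 38.5 to 1304. The smooth muscle list had 1 higher and 1 lower call and the fibre list 1 higher. The Schwann, erythroid and tendon lists had 0 calls by edgeR, with 1 Schwann marker in each direction at an unadjusted p under 0.05 and by DESeq2, 0 by limma-voom, and 0 by any of these in the other 2 lists. Smoc2 was the fibro-adipogenic marker called. It stood at 12.4, 6.47, 4.83 and 5.01 CPM in FosGFP+ and at 9.36, 195, 84.8 and 126 CPM in FosGFP-, with FosGFP- replicate 1 inside the FosGFP+ range (-3.84 ± 0.78, edgeR adjusted p = 0.0113), and the call was lost at about the same size without FosGFP+ replicate 2 (-3.77, 0.0532) or 4 (-3.67, 0.0507). The part of such cells in the differences above was not tested.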

How the data were processed

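Per the labels' protocols, RNA of 1000 sorted cells per library went through SMART-Seq v4 amplification and Nextera XT tagging and was read on an Illumina HiSeq. The kit does not keep the strand, so overlapping antisense genes cannot be told apart. The authors deposited raw counts per Ensembl gene. Named in the submitters' processing notes, with no role, are the build GRCm38 and the tools DESeq2 1.20.0, HTSeq 0.6.1, limma and STAR 2.5.0c. The authors also deposited their own comparison as log2 fold changes and adjusted p-values, whose sign is opposite to that used here and was turned round. The 14 per-library columns in that and a second such file match no label and were not used. Rows that name no gene held 76.8% to 89.7% of the reads per library and stayed out of library sizes.

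Genes kept by filterByExpr were scaled by TMM and tested with edgeR 4.0.16 (R 4.3.3), quasi-likelihood with robust dispersions, two-sided, no covariate, with Benjamini-Hochberg adjustment over 20698 genes and a threshold of 0.05. SE is the log2 fold change divided by the root of its F statistic. Symbols and positions came from GENCODE M21 (GRCm38), which holds 49412 of 49671 identifiers. The even background is reads per exonic kb over 1958 receptor genes times exonic length. Alternatives were DESeq2 size factors, scaling by total counts or by TMM of genes with 50 CPM or more, leaving out the 20 most abundant genes, no filter, a mean of at least 5 CPM, DESeq2 1.42.0, limma-voom (limma 3.58.1), background subtraction, the replicate block and each library left out.

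The groups, the 46 gene lists and the alternatives were chosen with earlier results of these data known, so list counts carry no test of their own. Genes that may be named are Fos, 40 per direction with the largest change among calls without overlap and with a mean of at least 5 CPM, the 15 most abundant called genes and the 15 smallest p per direction, and list members. Those in the text were chosen from them after their values were seen. Depth sets the precision: counts of low genes are few, and intervals were not drawn for them.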

Additional observations from a re-analysis of the deposited data

Results flagged for a closer look

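With 4 libraries in a group, a library was singled out where its gap to the nearest other exceeded the 95% limit of Dixon's ratio. Chance gives about 1 in 20 such groups, and 16 of 316 (5.06%) were found. FosGFP- replicate 3 was the library apart in 7. It was highest for Pdia6 at 419.5 CPM (others 240.6 to 253.3), Eif4e at 110.4 (78.7 to 83.6), Eif2s1 at 94.6 (57.6 to 61.7), Gstp1 at 53.2 (41.5 to 43.1), Tubb6 at 870.1 (474.0 to 535.3) and Myod1 at 703.3 (374.7 to 421.8). It was lowest for Rplp0, at 296.5 CPM (320.5 to 323.9). FosGFP- replicate 4 was lowest for Flnc at 228.5 CPM (1039 to 1083). FosGFP- replicate 1 was lowest for Irf1 at 498.3 CPM (684.9 to 693.8) and highest for Hes6 at 75.5 (23.9 to 31.1). FosGFP+ replicate 1 was highest for Cyp51 at 398.2 CPM (176.8 to 212.4) and lowest for Eif2s1 at 132 (155.6 to 159), Tsc22d3 at 47.2 (123.4 to 128.3) and Vcam1 at 1237 (2092 to 2228). FosGFP+ replicate 3 was lowest for Ndrg1 at 821.7 CPM (1309 to 1365) and for Ramp2 at 8.25 (19.3 to 20.5). Each of these 15 genes was called by edgeR, and each kept its call without the library named beside it. The cause was not tested.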

How the results depend on the processing

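Scaling decided the balance of directions. Against 2125 higher and 383 lower calls with TMM, total counts gave 1005 and 2243, TMM from genes of at least 50 CPM 722 and 5252, and subtraction of the even background 1302 and 251, with 15648 genes tested. Lower calls also moved to 588 with a mean of at least 5 CPM and to 644 with DESeq2. With 1 library left out, higher calls ranged from 1689 to 2202 and lower calls from 184 to 364, and those under 3 scalings from 479 to 654 and from 184 to 363. The difference in the share of reads in genes was 6.85 percentage points and 10.6 with a denominator of genes and unassigned reads, and 5.68 to 7.75 with 1 library left out, where an exact permutation test of 3 against 4 cannot go below p = 0.0571. Genes that were not called changed sign in some settings. With total counts Ddit3 was at -0.19, Hspd1 at -0.26, Myf5 at -0.31 and Cxcr4 at -0.072. With TMM from genes of at least 50 CPM Atf4 was at -0.13, Ddit3 at -0.38, Hspd1 at -0.44, Myf5 at -0.50 (called lower, edgeR adjusted p = 0.0201) and Cxcr4 at -0.26. Under that scaling Keap1, Pax7, Cdh15, Calcr, Pecam1 and Ptprc kept their sign and were called lower. After subtraction Ddit3 was at -0.024, Hspd1 at -0.087 and Myf5 at -0.15. Cdh15 was at 0.0038 with no filter. With 1 library left out Hspd1 ranged from -0.010 to 0.38 and Cdh15 from -0.20 to 0.073. Of 141 called genes named, 133 kept their call in all alternatives. Same-numbered libraries had correlations of -0.015 to 0.0206 in their deviations from the group means, and 0 of 8 correlated best with its own number. Correlations between the groups were weak for any pair of numbers, from -0.121 to 0.153. They therefore cannot tell whether same-numbered libraries came from the same mouse. The replicate block gave 2002 higher and 278 lower calls and changed no call among the genes named.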

Other observations

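Of the gene lists not described above, 4 of 12 metallothionein and zinc genes were called higher, 14 of 77 mitochondrial ribosome genes, 11 of 28 genes of RNA polymerases I and III, 8 of 18 genes of EGF receptor ligands and feedback, 8 of 20 genes of the HGF and urokinase system, 2 of 12 genes of the MYC network, 4 of 15 genes of HMG and linker proteins and 1 of 31 imprinted genes. Over all genes of at least 50 CPM 41.9% were called higher. At that level the calls were 4 of 7 metallothionein and zinc genes, 4 of 7 of the mitochondrial ribosome and 6 of 13 of the RNA polymerases. They were 7 of 8 in the EGF list, 7 of 11 in the HGF list and 2 of 4 in the MYC network. HMG and linker proteins had 2 of 6 and imprinted genes 1 of 15. With TMM from genes of at least 50 CPM the higher and lower calls were 0 and 0 for metallothioneins, 3 and 9 for the mitochondrial ribosome, 3 and 3 for the RNA polymerases, 2 and 6 for the EGF list, 4 and 3 for the HGF list, 1 and 4 for the MYC network, 2 and 2 for HMG and linker proteins and 0 and 9 for imprinted genes (edgeR).

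The constant region gene of the T cell receptor delta chain, Trdc, is a marker of gamma-delta T cells. It stood at 7.63, 28.0, 20.5 and 33.8 CPM in FosGFP+ and at 5.79, 3.45, 7.48 and 5.67 CPM in FosGFP-, a log2 fold change of 2.00 ± 0.43 (SE; edgeR adjusted p = 0.00537). The groups did not overlap, by a narrow margin between FosGFP+ replicate 1 and FosGFP- replicate 3. The pan-leukocyte gene Ptprc was not called with TMM, at 44.2 ± 10.1 against 54.5 ± 13.7 CPM (SD, n = 4 each), and was called lower with TMM of well-expressed genes. The source of the Trdc reads was not tested.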
